A study of Mus musculus with 8 samples.

Results

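The 51 replication-dependent histone genes described here are those, among 20926 genes of an RNA-seq table of mouse molar mesenchyme, whose names begin with Hist1h, Hist2h, Hist3h or Hist4h. The rule goes by name and uses no measured value. They comprise 5 genes of the linker histone H1, 12 of H2A, 13 of H2B, 10 of H3 and 11 of H4. By name, 41 of the genes belong to Hist1 on chromosome 13, 7 to Hist2 on chromosome 3, 2 to Hist3 on chromosome 11 and 1 to Hist4 on chromosome 6. *Hist1h2al*, counted in the 41, is typed as a processed pseudogene and lies apart from the Hist1 cluster.

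Mesenchyme was collected from molars at postnatal (PN) day 3 in 4 control samples of genotype Ezh2fl/fl and in 4 samples of genotype Osr2KI-Cre;Ezh2fl/fl, called Osr2-Ezh2cko. The labels give the strain of all 8 as C57BL/6, whereas the methods of the paper speak of a mixed background. Both groups carried floxed *Ezh2* alleles, and the mutants alone carried Osr2KI-Cre, a Cre expressed from the *Osr2* gene, which is active in the dental mesenchyme. The study used the comparison to find genes that change when *Ezh2*, the methyltransferase of a Polycomb repressive complex, is lost from this tissue. The dental epithelium was described as dissected away before RNA was isolated. Whether a library represents 1 animal or a pool is not stated in the sources used here, so p-values measure only the spread between these samples. The labels give total RNA as the molecule while the design text speaks of mRNA, and how RNA was selected for the libraries is not stated.

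The deposited values are normalized read abundances without a gene-length factor, scaled so that the 75th percentile of every library is near 38.5. The smallest value of each library behaves as 1 added read, so reads were estimated by dividing a value by that minimum and subtracting 1. By this estimate control libraries 1 to 4 held 50.4, 66.8, 52.8 and 61.9 M reads, and Osr2-Ezh2cko libraries 1 to 4 held 48.3, 60.3, 64.1 and 68.8 M. The worth of 1 read thus lay between a value of 0.0129 and 0.0190. A floor of 3 reads was set as the least that this depth can show, which covers counting error only.

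*Ezh2* was measured at 55.0, 38.3, 39.6 and 39.0 in control libraries 1 to 4 and at 35.2, 30.1, 23.2 and 36.0 in Osr2-Ezh2cko libraries 1 to 4. Every Osr2-Ezh2cko library lay below every control library, and control library 1 stood above the other controls. The group means were 42.9 ± 8.03 and 31.1 ± 5.92 (SD, n = 4 each). On the log2(value + 1) scale the difference was -0.46 (95% confidence interval -0.81 to -0.10) with a limma adjusted p of 0.235, and the exact two-sided permutation p was 0.0286, the smallest that 70 arrangements of 8 libraries allow. The table holds a value for the whole gene, so reads from outside the floxed segment are included.

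The labelled tissue was checked against marker genes. Of 8 dental mesenchyme markers (*Msx1*, *Pax9*, *Lhx6*, *Lhx8*, *Barx1*, *Prrx1*, *Vim* and *Col1a1*), all passed the filter on low values, set at values of 1 or more in 4 or more of the 8 libraries. Their summed values were 9381, 10837.5, 9344 and 8736 in controls and 8398, 9878, 6989 and 8312 in Osr2-Ezh2cko libraries, with *Col1a1* the most abundant. *Lhx8*, a homeobox gene of the early tooth mesenchyme, was higher in every Osr2-Ezh2cko library, at 18.0, 22.9, 28.1 and 25.4 against 10.9, 10.6, 10.1 and 7.94 in controls, a log2 difference of 1.17 with an adjusted p of 0.00509. Transcripts of enamel-forming cells were also present in all libraries, in uneven amounts, although the epithelium was described as removed. *Amelx*, which encodes amelogenin, lay between 316 in Osr2-Ezh2cko library 4 and 16250 in control library 4.

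Replication-dependent histone genes supply the bulk of histone proteins when DNA is copied in S phase. *Npat*, a coactivator found at the histone gene clusters, drives their transcription, and most of their mRNAs end in a conserved stem-loop bound by *Slbp* in place of a poly(A) tail. A subset of these genes can also give polyadenylated transcripts that end further downstream. A library made by selecting poly(A) RNA captures stem-loop transcripts poorly, and a library of total RNA captures both kinds.

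Most of the histone genes were low. A total of 44 of 51 had a mean value under 1 over the 8 libraries, and 7 passed the filter on low values and were tested between genotypes. These 7 were *Hist1h1c*, *Hist3h2a*, *Hist2h2aa2*, *Hist1h2bc*, *Hist3h2ba*, *Hist2h2be* and *Hist1h4i*, so that H1, H2A, H2B and H4 each had at least 1 tested gene and H3 had 0. By GENCODE M21 (GRCm38, the build also called mm10), the 4 of them that were lower at an unadjusted p under 0.05 lie at chr3:96239749-96240276 on the minus strand (*Hist2h2aa2*), chr3:96221119-96223738 on the plus strand (*Hist2h2be*), chr11:58948920-58949533 on the plus strand (*Hist3h2ba*) and chr11:58954685-58956830 on the plus strand (*Hist3h2a*). In 21 of the 51 genes at least 1 library was at or under 3 estimated reads, and in 0 genes were all 8 libraries that low. The values of all 51 genes summed to 91.3, 107, 105 and 121 in control libraries 1 to 4 and to 97.2, 79.2, 81.6 and 78.4 in Osr2-Ezh2cko libraries 1 to 4. Osr2-Ezh2cko library 1 lay within the control range, and the other three lay below it.

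Of the 7 tested genes, 6 had a negative log2 difference between Osr2-Ezh2cko and control, against 45.9% of all genes tested, and 4 (*Hist2h2aa2*, *Hist2h2be*, *Hist3h2ba* and *Hist3h2a*) were lower at an unadjusted limma p under 0.05, against 4.87% of all 14854 genes tested. At an unadjusted p under 0.05, 0 histone genes were higher, against 8.27% of all genes tested. After Benjamini-Hochberg adjustment over all genes tested, 1 histone gene, *Hist2h2aa2*, was lower at an adjusted p under 0.05 (0.512% of all genes) and 0 were higher (1.56% of all genes). *Hist2h2aa2* passed the filter through its control libraries (2.72 to 3.82), because Osr2-Ezh2cko libraries 1 and 4 lay under 1 (0.920 and 0.650). Its place among the 7, the 6 and the 4 thus rests on the group where it is high. Without a filter its limma adjusted p was 0.0113. With the replicate number as a block, the adjusted p of *Hist2h2aa2* was 0.0501 and 0 histone genes were called. The median log2 difference was -0.34 over the 7 histone genes and 0.013 over all genes tested. Because tissue pieces were measured in bulk, fewer cells that make these transcripts and less transcript per cell cannot be told apart.

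The groups did not overlap in 3 of the 7 tested genes (*Hist2h2aa2*, *Hist2h2be* and *Hist3h2ba*), all lower in Osr2-Ezh2cko. Among all genes tested, 2.77% had every Osr2-Ezh2cko library below every control. Over all 51 histone genes the count was 5, with *Hist1h2bk* and *Hist1h4m* added, against 2.65% of all 20926 genes, and in 0 histone genes was every Osr2-Ezh2cko library above every control (5.55% of all genes).

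**Figure D1:**
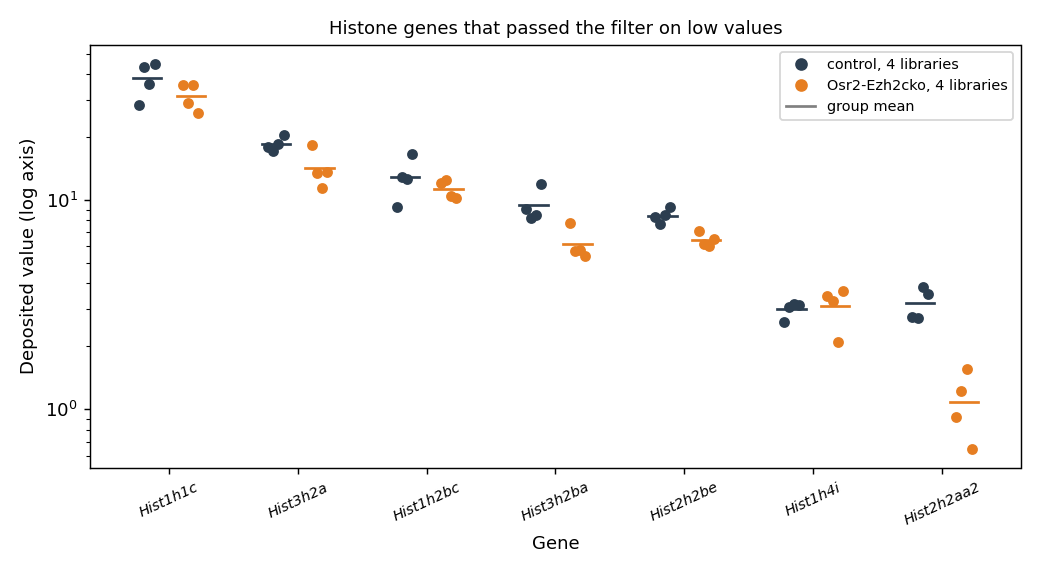
Deposited values (log axis) of the 7 histone genes that passed the filter on low values, with 1 point for each of 4 control (dark) and 4 Osr2-Ezh2cko (orange) libraries and a line at each group mean. The groups do not overlap in *Hist3h2ba*, *Hist2h2be* and *Hist2h2aa2*, and the means of *Hist2h2aa2* are 3.22 and 1.09.

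Linker histones of the H1 family bind DNA where it enters and leaves the nucleosome. *Hist1h1c*, the H1 gene with the highest level, was measured at 28.5, 43.3, 35.6 and 44.6 in control libraries 1 to 4 and at 35.5, 29.1, 35.5 and 25.9 in Osr2-Ezh2cko libraries 1 to 4. The groups overlapped, because control library 1 was as low as the lower Osr2-Ezh2cko libraries. The log2 difference of -0.25 (95% interval -0.60 to 0.09) did not pass the test (limma adjusted p 0.576, exact permutation p 0.200). With a library left out its difference ran from -0.38, without control library 1, to -0.17, without Osr2-Ezh2cko library 4. Array weights count a library less the further its genes lie from their group means. With them the difference was -0.52 and called (adjusted p 0.00617), as were 27.2% of all genes.

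The other H1 genes were near the limit of the depth. *Hist1h1e* had values of 0.349, 0.221, 0.554 and 0.377 in controls and 0.313, 0.186, 0.0443 and 0.255 in Osr2-Ezh2cko libraries, which are 2 to 31 estimated reads. *Hist1h1d* had 0.2999, 0.174, 0.382 and 0.236 in controls and 0.140, 0.149, 0.0881 and 0.389 in Osr2-Ezh2cko libraries, from 5 to 29 reads. Both overlapped between groups, with exact permutation p of 0.0857 for *Hist1h1e* and 0.343 for *Hist1h1d*. The remaining pair of H1 genes, *Hist1h1a* and *Hist1h1b*, had means of 0.161 and 0.126.

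Among the H2A genes, which encode a core histone that pairs with H2B in the nucleosome, *Hist3h2a* had the highest level. Its values were 17.8, 17.0, 18.5 and 20.5 in controls and 18.3, 13.4, 11.5 and 13.5 in Osr2-Ezh2cko libraries. Osr2-Ezh2cko library 1 lay among the controls, and the other three lay below all of them. The means were 18.4 ± 1.47 and 14.2 ± 2.91 (SD, n = 4 each). The log2 difference was -0.37 (95% interval -0.67 to -0.08), with an unadjusted limma p of 0.0185, an adjusted p of 0.238 and an exact permutation p of 0.0857. Without Osr2-Ezh2cko library 1 the difference was -0.49 and the adjusted p 0.0408, and without control library 4 the unadjusted p was no longer under 0.05. Of the windows of 75 bases, the read length, in its transcripts, 30.6% also occur in other genes, mainly *Trim17*, which overlaps it on the same strand and had means of 0.284 in controls and 0.255 in Osr2-Ezh2cko.

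*Hist2h2aa2* showed the largest difference of the 7 tested histone genes. It was measured at 2.77, 2.72, 3.82 and 3.57 in control libraries 1 to 4 and at 0.920, 1.22, 1.56 and 0.650 in Osr2-Ezh2cko libraries 1 to 4, or 158 to 232 and 48 to 109 estimated reads. Every Osr2-Ezh2cko library was below every control library, with means of 3.22 ± 0.557 and 1.09 ± 0.392 (SD, n = 4 each), a ratio of control to Osr2-Ezh2cko of 2.96. The log2 difference was -1.02 (95% interval -1.37 to -0.68, unadjusted p 7.30e-05, limma adjusted p 0.0101), and the exact permutation p was 0.0286, the smallest possible. This scale understates the change of low genes because of the added 1.

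*Hist2h2aa2* has a near copy, *Hist2h2aa1*, in an inverted repeat of the Hist2 cluster, and reads could not be assigned to either with certainty. All 454 of its 75-base windows occur also in *Hist2h2aa1*, in *Gm20632*, which lies antisense over *Hist2h2aa2*, and in *Gm20633* and *Gm20634*, which overlap *Hist2h2aa1*. *Hist2h2aa1* had values of 0.704, 0.400, 0.426 and 1.38 in controls and 1.01, 0.533, 1.25 and 0.794 in Osr2-Ezh2cko libraries, which overlapped (exact permutation p 0.514). The sum of both copies was 3.47, 3.12, 4.25 and 4.95 in controls and 1.93, 1.75, 2.81 and 1.44 in Osr2-Ezh2cko libraries, again without overlap.

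Of *Gm20632*, *Gm20633* and *Gm20634*, only *Gm20634*, which shares its strand with *Hist2h2aa1*, had groups that did not overlap. *Gm20634* had values of 3.76, 5.21, 6.26 and 6.48 in controls and 3.49, 2.72, 3.36 and 2.64 in Osr2-Ezh2cko libraries, with a log2 difference of -0.65 and an adjusted p of 0.0751. *Gm20632* had 7.67, 11.6, 8.31 and 10.2 in controls and 11.9, 7.54, 12.5 and 8.09 in Osr2-Ezh2cko libraries (log2 difference 0.061, adjusted p 0.947). *Gm20633*, whose values ran from 3.77 to 6.18 in controls and from 3.14 to 9.20 in Osr2-Ezh2cko libraries, had an adjusted p of 0.998. When all 5 genes were summed the groups overlapped, with means of 23.8 ± 3.84 and 20.4 ± 5.75 (SD, n = 4 each). Whether the counting used strand is not stated, so a share of reads from *Hist2h2aa2* and *Gm20632* cannot be told apart.

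**Figure D2:**
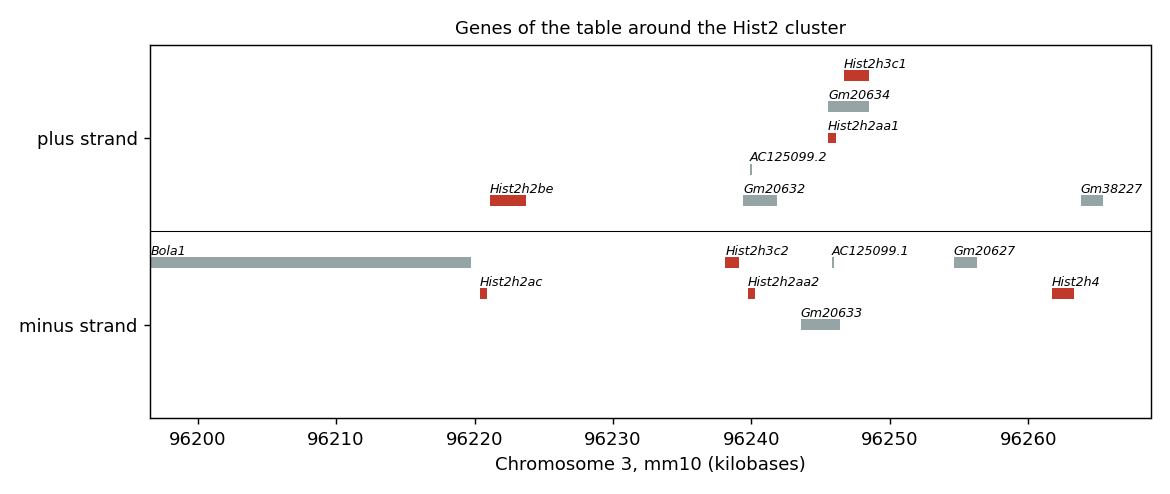
Map of the Hist2 cluster on chromosome 3 (mm10, kilobases), with histone genes in red and the other genes of the table in grey, plus strand above and minus strand below. *Hist2h2aa2* and *Hist2h2aa1* lie on opposite strands, and *Gm20632*, *Gm20633* and *Gm20634* overlap them.

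The other 9 H2A genes had means between 0.0957 and 0.550. The highest of these was *Hist1h2al*, which GENCODE types as a processed pseudogene and which lies apart from the rest of its cluster at chr13:51202727-51203065 and was measured at 0.0412, 1.11, 0.610 and 0.412 in controls and 0.711, 0.0565, 0.827 and 0.635 in Osr2-Ezh2cko libraries. It was chosen for display after its values were seen, because a library of each group was at or under 3 reads while others held up to 82. Of its windows, 45.7% occur in other genes, including *Hist2h2aa1*.

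The H2B genes gave 3 tested members, more than any other class. *Hist1h2bc* had values of 9.24, 12.9, 12.5 and 16.5 in controls and 12.1, 12.5, 10.4 and 10.3 in Osr2-Ezh2cko libraries. The Osr2-Ezh2cko libraries lay inside the control range. The log2 difference was -0.14 (95% interval -0.49 to 0.20), which did not pass the test (adjusted p 0.817, exact permutation p 0.486). It ran from -0.28 to -0.020 with a library left out.

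*Hist3h2ba*, a neighbour of *Hist3h2a* whose end lies 5151 bases before the start of that gene, was measured at 9.06, 8.22, 8.51 and 12.0 in controls and at 7.79, 5.71, 5.76 and 5.38 in Osr2-Ezh2cko libraries. The groups did not overlap, with Osr2-Ezh2cko library 1 again closest to the controls. The means were 9.44 ± 1.72 and 6.16 ± 1.10 (SD, n = 4 each), a ratio of 1.53. The log2 difference was -0.54 (95% interval -0.86 to -0.22), with an unadjusted p of 0.00378, a limma adjusted p of 0.102 and an exact permutation p of 0.0286. Without Osr2-Ezh2cko library 1 the difference was -0.64 and the adjusted p 0.0447.

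*Hist2h2be* was at 8.29, 7.64, 8.44 and 9.25 in controls and 7.11, 6.13, 6.01 and 6.52 in Osr2-Ezh2cko libraries. The highest Osr2-Ezh2cko library was below the lowest control. The means were 8.41 ± 0.661 and 6.44 ± 0.494 (SD, n = 4 each), a ratio of 1.31. The log2 difference was -0.34 (95% interval -0.54 to -0.13), with an unadjusted p of 0.00477, a limma adjusted p of 0.115 and an exact permutation p of 0.0286. *Hist2h2be* shares 0 of its 75-base windows with any other gene, and its estimated reads, from 374 to 604, came out whole in all 8 libraries within a tolerance of 0.02.

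Of the other 10 H2B genes, with means between 0.0651 and 0.669, 9 had a lower mean in Osr2-Ezh2cko. *Hist1h2bk* had values of 0.859, 0.766, 0.653 and 0.541 in controls and 0.512, 0.178, 0.340 and 0.293 in Osr2-Ezh2cko libraries, without overlap, from 11 to 56 reads. Its exact permutation p was 0.0286, and 72.6% of its windows are shared, mainly with other H2B genes.

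The core histones H3 and H4 form the tetramer at the centre of the nucleosome, and H3 carries the residue that *Ezh2* methylates. All 10 H3 genes missed the filter. *Hist1h3c* had values of 0.521, 0.768, 0.613 and 0.578 in controls and 0.825, 0.630, 0.235 and 0.807 in Osr2-Ezh2cko libraries, and *Hist1h3h* had 1.05, 0.402, 0.820 and 0.0289 in controls and 0.471, 0.306, 0.673 and 0.638 in Osr2-Ezh2cko libraries. *Hist1h3a*, with 0.377, 0.385, 0.401 and 0.306 in controls, had 0.501, 0.258, 0.232 and 0.243 in Osr2-Ezh2cko libraries. All of these overlapped, with exact permutation p of 1 for *Hist1h3c*, 0.83 for *Hist1h3h* and 0.400 for *Hist1h3a*. Control library 4 of *Hist1h3h* held 1 estimated read against 29 to 59 in the other controls, and 93.5% of the windows of *Hist1h3h* occur in other genes. The other 7 H3 genes had means from 0.130 to 0.2999 and 0 to 26 reads.

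*Hist1h4i* was the H4 gene with the highest level and the only tested histone gene without a negative difference. Its values were 2.62, 3.09, 3.18 and 3.13 in controls and 3.46, 3.29, 2.10 and 3.67 in Osr2-Ezh2cko libraries. Osr2-Ezh2cko library 3 was the lowest of all 8, and the other three were above every control. The log2 difference was 0.029 (95% interval -0.28 to 0.34), with an adjusted p of 0.968 and an exact permutation p of 0.743, and it was -0.024 after quantile normalization.

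The next H4 genes were *Hist1h4d*, with 0.381, 0.416, 0.647 and 0.332 in controls and 0.278, 0.326, 0.178 and 0.546 in Osr2-Ezh2cko libraries, and *Hist1h4h*, with 0.194, 0.448, 0.559 and 0.327 in controls and 0.304, 0.184, 0.191 and 0.371 in Osr2-Ezh2cko libraries. Both overlapped, with exact permutation p of 0.343 and 0.229. The other 8 H4 genes had means from 0.0999 to 0.192. *Hist1h4m* was the only H4 gene whose groups did not overlap, at 0.279, 0.175, 0.308 and 0.198 in controls and 0.140, 0.141, 0.0141 and 0.144 in Osr2-Ezh2cko libraries, from 0 to 17 reads.

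Summed by class, the H1 genes gave 39.0 ± 7.36 in controls and 32.1 ± 4.61 in Osr2-Ezh2cko, and the H2A genes 24.8 ± 1.97 and 18.3 ± 3.32 (SD, n = 4 each). The H2B sums were 34.0 ± 4.20 and 26.3 ± 2.46. The H3 sums were 2.97 ± 0.430 and 2.496 ± 0.720, and the H4 sums 5.21 ± 0.669 and 4.82 ± 1.02. The mean was lower in Osr2-Ezh2cko for each class, and in H3 and H4 the means were less than 1 SD of the Osr2-Ezh2cko libraries apart. The sums follow the most abundant genes of each class and were given no test.

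Over all 51 histone genes, 42 (82.4%) had a lower mean in Osr2-Ezh2cko than in control, against 43.2% of all 20926 genes. Of the 44 that were not tested, 36 (81.8%) did, against 40.3% of the 6072 genes that missed the filter. The median ratio of the Osr2-Ezh2cko mean to the control mean was 0.766 over the histone genes and 1.02 over all genes. By class, the mean was lower in 5 of 5 H1, 8 of 12 H2A, 12 of 13 H2B, 9 of 10 H3 and 8 of 11 H4 genes. With median-of-ratios scaling 44 of 51 were lower (48.0% of all genes), and with quantile normalization 46 (49.0% of all genes). Leaving out each library in turn gave from 38, without Osr2-Ezh2cko library 3, to 46, without Osr2-Ezh2cko library 4. The genes are not independent of each other in this count, because 23 of 51 share over 50% of their 75-base windows with other genes.

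In 5 of the 51 genes (*Hist1h1a*, *Hist1h1b*, *Hist2h2be*, *Hist2h4* and *Hist4h4*) the estimated reads came out whole in all 8 libraries, and 4 of these, all but *Hist4h4*, share 0 windows with other genes. The rest had a fraction of a read in at least 1 library.

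Levels were compared between genes per kilobase of exon, with the mean over all 8 libraries. *Hist1h1c* stood at 22.3, *Hist1h2bc* at 16.4, *Hist3h2ba* at 12.7 and *Hist3h2a* at 7.60 per kilobase, above the median of 5.24 over all genes tested. *Hist1h4i* at 4.22, *Hist2h2aa2* at 4.08 and *Hist2h2be* at 2.83 lay below it. The 44 untested histone genes ran from 0.0533 to 1.62 per kilobase. On this scale *Hist1h1c* was at percentile 86.3 of the genes tested and *Hist2h2be* at percentile 33.2.

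Replication-independent histone genes, which are expressed outside S phase as well, mostly stood higher per kilobase than *Hist1h1c*, but *H2afy* at 16.7, *H2afj* at 13.7 and *Cenpa* at 9.78 lay below it. *H1f0*, the linker histone of resting and differentiating cells, was at 315 per kilobase, and *H2afz*, which encodes the variant H2A.Z, was at 145 per kilobase, or 6.51 times *Hist1h1c*. *H2afx*, at 54.9 per kilobase, encodes a variant that is phosphorylated at DNA breaks.

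**Figure D3:**
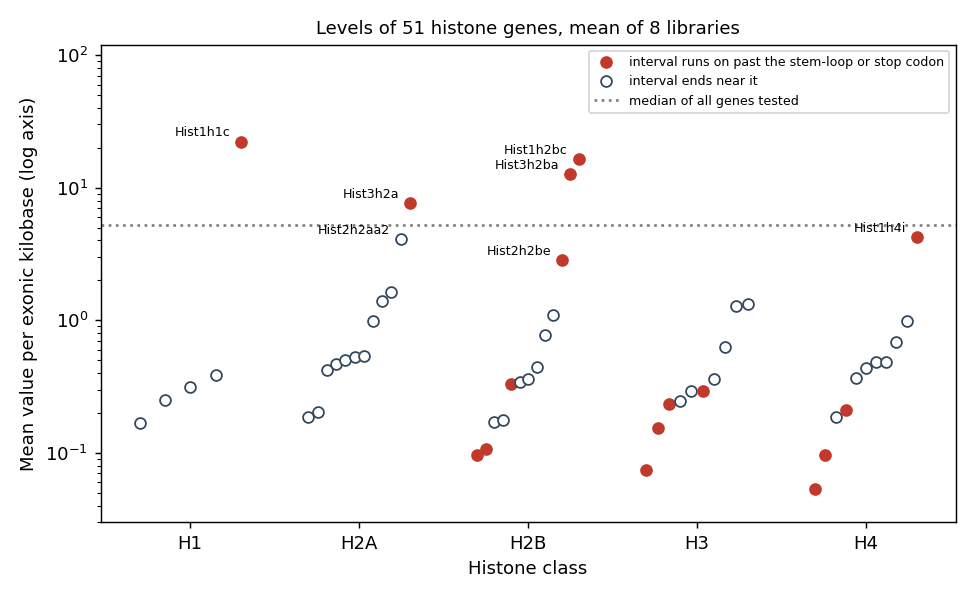
Mean value per exonic kilobase over 8 libraries (log axis) for the 51 histone genes by class, each a point. Filled red points are the 16 genes whose annotated interval runs on past the stem-loop or stop codon, open points the 35 that end near it, and the dotted line is the median of all genes tested, 5.24. The 6 genes with a mean value of at least 3, before division by length, are all filled. On the plotted scale the open point of *Hist2h2aa2* (4.08) lies above the filled point of *Hist2h2be* (2.83).

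Of the 7 tested genes, 6 shared a feature of their annotation that the choice by name did not use, and *Hist2h2aa2* did not. In the gene intervals of the table, 16 of the 51 genes ran on by at least 100 bases past the stem-loop, or by at least 200 past the stop codon where no stem-loop was found, and 35 ended near it. These limits were set after the values were seen. By the longest GENCODE transcript instead of the interval, 8 more genes, with means up to 0.388, ran on, which made 24 and 27. All 6 histone genes with a mean value of at least 3 (*Hist1h1c*, *Hist3h2a*, *Hist1h2bc*, *Hist3h2ba*, *Hist2h2be* and *Hist1h4i*) were among the 16 and thus among the 24, and among the 35 the highest mean was 2.15, of *Hist2h2aa2*. The other 10 genes that ran on had means under 1, the highest 0.669, and the median of the mean values was 0.384 over the 16 and 0.206 over the 35. Per kilobase of exon, which divides by a length that takes in the extension, the medians were 0.263 and 0.442.

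The extension past the stem-loop was 840 bases in *Hist1h1c*, 1643 in *Hist3h2a*, 169 in *Hist3h2ba* and 330 in *Hist1h4i*. In *Hist2h2be*, where no stem-loop was found, the interval ended 2192 bases past the stop codon, and in *Hist1h2bc* 7876 bases past it, introns included. The letters AATAAA or ATTAAA, the usual poly(A) signals, were found within the last 50 bases of an annotated transcript in 12 of the 16 genes and in 3 of the 35. Of all annotated protein-coding transcripts, counted singly and not by gene, 50.2% have them there. In several of the 35, *Hist1h3h* and *Hist1h4k* among them, the annotated transcript ends at the stop codon, with 0 bases after it. No signal downstream of the stop codon could be found in those, so the contrast partly reflects where the annotation ends.

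The 3' end windows of the tested genes that carry such a signal are printed to show the letters in place, in capitals, up to the annotated transcript end or the window limit (GENCODE M21, GRCm38). *Hist1h1c* is read at chr13:23740336-23740365 on the plus strand, *Hist1h4i* at chr13:22040636-22040662 on the minus strand, *Hist2h2be* at chr3:96223711-96223738 on the plus strand, *Hist3h2a* at chr11:58956791-58956820 on the plus strand and *Hist3h2ba* at chr11:58949501-58949530 on the plus strand. The signal starts 6 bases into each window. *Hist1h2bc* and *Hist2h2aa2* have no such letters there.
Hist1h1c: gcttctAATAAAaagcgtttagttttcatt
Hist1h4i: gtttacATTAAAagtattctatgctaa
Hist2h2be: attattAATAAAgttaccgattagtttc
Hist3h2a: atgcccAATAAAataagagtacgtgtataa
Hist3h2ba: ggtattAATAAAtttggttcaattttggcc

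The stem-loop itself, 16 bases with a stem of 6 and a loop of 4, was searched for in the annotated transcripts and found in 36 of the 51 genes. It could not be found where the annotated transcript ends at the stop codon, as in *Hist1h3h* and *Hist1h4k*. A single sequence, with the loop letters TTTC, served 21 genes of the classes H1, H2A, H2B and H3, among them *Hist1h1c*, *Hist3h2a*, *Hist3h2ba* and *Hist2h2aa2*. The H4 genes had other stems, including *Hist1h4i*. The forms are printed with the loop in capitals and differ in the stem, the loop or both.
Form in 21 genes: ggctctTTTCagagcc
Form in 5 genes, all H4: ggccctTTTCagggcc
Form in 5 genes, H2B and H3: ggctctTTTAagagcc
Form in Hist1h4i and Hist2h4: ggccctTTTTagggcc
Form in Hist1h4b and Hist1h4j: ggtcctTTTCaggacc
Form in Hist2h2ac: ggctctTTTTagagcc

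The stem-loops of the 5 tested genes in which one was found, and of the untested copy *Hist2h2aa1*, are printed with 5 flanking bases on each side to show the letters around the stem. The capitals mark the stem-loop, whose coordinates (GRCm38) are chr13:23739512-23739527 on the plus strand for *Hist1h1c*, chr13:22040966-22040981 on the minus strand for *Hist1h4i*, chr3:96239784-96239799 on the minus strand for *Hist2h2aa2*, chr3:96246032-96246047 on the plus strand for *Hist2h2aa1*, chr11:58955172-58955187 on the plus strand for *Hist3h2a* and chr11:58949349-58949364 on the plus strand for *Hist3h2ba*. *Hist2h2aa2* and *Hist2h2aa1* are identical here.
Hist1h1c: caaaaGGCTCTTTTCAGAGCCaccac
Hist1h4i: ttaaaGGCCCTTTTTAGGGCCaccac
Hist2h2aa2: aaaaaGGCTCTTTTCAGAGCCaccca
Hist2h2aa1: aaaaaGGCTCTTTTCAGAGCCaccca
Hist3h2a: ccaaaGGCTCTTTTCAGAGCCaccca
Hist3h2ba: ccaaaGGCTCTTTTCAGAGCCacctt

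The promoters were searched in the 250 bases before the gene start on both strands for the letters TATAAA, for the letters CCAAT and for the octamer, the 8-base site named for octamer-binding factors, in RefSeq sequences (GRCm38.p6) that matched 45 of the 51 genes and gave 46 promoters. CCAAT occurred in 80.4% of the 46 promoters against 33.8% of 32851 promoters of all genes. TATAAA occurred in 43.5% against 12.4%, and the octamer in 17.4% against 1.60%. A match is a description of the letters and not a binding site.

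The upstream sequences of the neighbours *Hist3h2ba* and *Hist3h2a*, which were both lower in Osr2-Ezh2cko at an unadjusted p under 0.05, are printed with the matches on either strand in capitals. They lie at chr11:58948661-58948910 and chr11:58954435-58954684 on the plus strand (RefSeq, GRCm38.p6). *Hist3h2ba* holds CCAAT at 4 places and TATAAA at 2, with 33 bases between the nearer TATAAA and the gene start. *Hist3h2a* holds CCAAT at 2 places and the octamer, read on the opposite strand and the one match of 8 capitals in its line, 111 bases before the start, and no TATAAA in this window. No promoter of *Hist2h2be* is shown.
Hist3h2ba: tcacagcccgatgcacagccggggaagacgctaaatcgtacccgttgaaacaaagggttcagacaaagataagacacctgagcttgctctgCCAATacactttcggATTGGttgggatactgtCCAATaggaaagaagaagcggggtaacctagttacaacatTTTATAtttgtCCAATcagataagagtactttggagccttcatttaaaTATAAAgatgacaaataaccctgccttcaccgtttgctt
Hist3h2a: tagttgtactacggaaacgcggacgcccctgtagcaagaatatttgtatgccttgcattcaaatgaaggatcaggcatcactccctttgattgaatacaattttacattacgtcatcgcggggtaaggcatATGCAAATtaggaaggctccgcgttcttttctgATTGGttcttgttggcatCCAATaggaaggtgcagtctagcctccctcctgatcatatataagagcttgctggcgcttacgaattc

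Neighbouring histone genes could differ widely in level. *Hist2h2be* and *Hist2h2ac* are transcribed away from each other from starts 238 bases apart, and per exonic kilobase *Hist2h2be* was 15.1 times as high as *Hist2h2ac*, which had 2 to 11 estimated reads. *Hist3h2a* stood at 0.598 times *Hist3h2ba* per exonic kilobase.

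The genes that transcribe and process histone mRNA were examined next, from a list of 21 that were all tested. At an unadjusted p under 0.05, 1 of the 21 was lower (4.87% of all genes) and 0 were higher (8.27% of all genes). The median log2 difference was -0.014, and limma called 0 at an adjusted p under 0.05. The number at an unadjusted p under 0.05 was 4 without Osr2-Ezh2cko library 3 (14.9% of all genes) and 8 with array weights (40.7% of all genes). It was 0 without each of 5 other libraries (8.60% to 14.6% of all genes). *Npat* was measured at 41.8, 40.0, 37.2 and 40.7 in controls and 35.6, 40.9, 45.6 and 41.4 in Osr2-Ezh2cko libraries. *Slbp* was at 49.9, 46.1, 47.0 and 44.5 in controls and 52.1, 51.02, 38.9 and 53.2 in Osr2-Ezh2cko libraries. The groups overlapped in both, with log2 differences of 0.030 (95% interval -0.16 to 0.22) for *Npat* and 0.048 (-0.18 to 0.28) for *Slbp*. Osr2-Ezh2cko library 3 was lowest of all 8 for *Slbp* and highest for *Npat*.

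The lower gene of that list was *Ctif*, a factor of the first round of translation at the nuclear cap-binding complex, with values of 69.1, 78.2, 94.5 and 107 in controls and 59.2, 63.2, 86.9 and 55.7 in Osr2-Ezh2cko libraries (log2 difference -0.39, unadjusted p 0.0404, adjusted p 0.344). The groups overlapped through Osr2-Ezh2cko library 3. The next largest negative difference was -0.20 in *Zfp473*, a zinc finger protein of the histone pre-mRNA processing complex, and the largest positive ones were 0.060 in *Lsm1* and 0.054 in *Pou2f1*, the octamer-binding factor.

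Of 11 replication-independent histone genes, all tested, 1 was higher at an unadjusted p under 0.05 (8.27% of all genes) and 0 were lower (4.87% of all genes). The median was -0.016, and limma called 0 at an adjusted p under 0.05. With a library left out the median ran from -0.13 to 0.055. The number at an unadjusted p under 0.05 then ran from 0 to 2 (8.60% to 14.9% of all genes). That number was 0 with the replicate block (9.86% of all genes) and 3 with array weights (40.7% of all genes). The higher gene was *H2afy2*, which encodes a macroH2A, at 85.9, 87.4, 83.5 and 82.8 in controls and 91.0, 104, 89.0 and 105 in Osr2-Ezh2cko libraries. Every Osr2-Ezh2cko library was above every control, with a log2 difference of 0.19 and an adjusted p of 0.282. The other large differences, none past the test, were 0.14 in *H3f3b*, -0.16 in *H2afx* and -0.15 in *H2afj*.

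Histone chaperones escort histones to and from chromatin. Of 18 such genes, all tested, 1 was lower at an unadjusted p under 0.05 (4.87% of all genes) and 0 were higher (8.27% of all genes). The median was -0.0082, and limma called 0 at an adjusted p under 0.05. Over the alternatives the number at an unadjusted p under 0.05 ran from 0, with the replicate block (9.86% of all genes), to 3, with array weights (40.7% of all genes). *Supt16*, a subunit of the FACT complex, had values of 147, 139, 141 and 131 in controls and 115, 126, 115 and 129 in Osr2-Ezh2cko libraries, without overlap (log2 difference -0.20, adjusted p 0.215). Its partner *Ssrp1* had a difference of -0.056 (95% interval -0.24 to 0.13). The other differences at the ends of the list were -0.16 in *Ubn1*, 0.089 in *Hjurp* and 0.031 in *Rbbp7*.

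Genes of the cell cycle were taken in a pair of lists. Of 20 S phase genes, all tested, 0 passed an unadjusted p under 0.05 in either direction, against 13.1% of all genes. At an adjusted p under 0.05 limma called 0, and the median was 0.00083 as deposited and -0.020 with median-of-ratios scaling. Without Osr2-Ezh2cko library 3, 4 of them passed an unadjusted p under 0.05 (median 0.089), against 14.9% of all genes, and with array weights 8 did (median 0.10), against 40.7% of all genes. *Pcna*, the sliding clamp of DNA polymerase, was at 88.6, 102, 105 and 113 in controls and 112, 103, 81.9 and 109 in Osr2-Ezh2cko libraries (log2 difference -0.013, 95% interval -0.26 to 0.24). The groups overlapped, with Osr2-Ezh2cko library 3 the lowest. The differences at the ends of the list were -0.11 in *Mcm5*, -0.097 in *Pola1*, 0.14 in *E2f1* and 0.13 in *Ccne1*.

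Of 12 mitosis genes, all tested, 11 had a negative difference, against 45.9% of all genes, and the median was -0.11. However, 0 passed an unadjusted p under 0.05, against 13.1% of all genes, and limma called 0 at an adjusted p under 0.05. *Mki67*, the proliferation marker Ki67, was at 432, 377, 378 and 289 in controls and 287, 385, 230 and 390 in Osr2-Ezh2cko libraries (log2 difference -0.21, 95% interval -0.62 to 0.20, exact permutation p 0.457, and -0.32 to -0.060 with a library left out). The groups overlapped widely. *Top2a* had a difference of -0.24 and *Birc5*, the only positive gene, 0.029. The median of the list was 0.051 without Osr2-Ezh2cko library 3 and -0.25 without Osr2-Ezh2cko library 4. With the ameloblast covariate described below it was -0.32, and 7 of the 12 genes passed an unadjusted p under 0.05, against 14.4% of all genes.

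Markers of other cells were compared as well, and 0 of those outside the dental mesenchyme list passed an adjusted p under 0.05, against 2.07% of all genes. All 7 markers of ameloblasts and dental epithelium (*Amelx*, *Ambn*, *Enam*, *Krt14*, *Krt5*, *Epcam* and *Cdh1*) had a negative difference, against 45.9% of all genes. The differences of the 7 ran from -2.97 to -0.27. Only *Epcam* was lower at an unadjusted p under 0.05 (log2 difference -0.48, adjusted p 0.133), against 4.87% of all genes. Their summed values were 2220, 4206, 18290 and 31754 in controls and 3289, 2297, 13320 and 2202 in Osr2-Ezh2cko libraries, with *Amelx* the most abundant. The groups overlapped widely. With the enamel genes *Amelx*, *Ambn* and *Enam* averaged on the log2 scale and entered as a covariate, the difference of *Hist2h2aa2* was -0.87 (limma adjusted p 0.0130), and the same 4 histone genes were lower at an unadjusted p under 0.05. *Hist1h1c* was then at -0.11 and *Hist1h2bc* at -0.031.

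All 3 endothelial markers were lower at an unadjusted p under 0.05, against 4.87% of all genes. The differences were -0.24 in *Pecam1*, -0.24 in *Cdh5* and -0.31 in *Kdr* (lowest adjusted p 0.0853). Their sums were 264, 294, 285 and 287 in controls and 237, 249, 225 and 227 in Osr2-Ezh2cko libraries, without overlap, and *Cdh5* was the most abundant. Of the odontoblast markers, *Dspp* was lower at an unadjusted p under 0.05 (-1.13, adjusted p 0.256) and *Dmp1* had a difference of -0.35, and the sums were 1424, 2185, 2887 and 2393 in controls and 826, 634, 2374 and 883 in Osr2-Ezh2cko libraries. In the dental mesenchyme list 5 of 8 differences were positive. At an unadjusted p under 0.05, 3 genes (*Lhx8*, *Prrx1* and *Msx1*) were higher, against 8.27% of all genes, and 0 were lower, against 4.87%. Only *Lhx8* passed an adjusted p under 0.05. *Msx1* and *Prrx1* had differences of 0.27 and 0.50 (adjusted p 0.280 and 0.0599), and *Vim*, *Col1a1* and *Barx1* had -0.26, -0.22 and -0.10. The part of these cell types in the lower histone values was not tested.

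Blood and muscle markers did not pass an unadjusted p under 0.05, but the lists are short and say little about these cells. Of 6 erythroid markers 5 were tested, all with positive differences, where 45.9% of all genes had a negative one. At an unadjusted p under 0.05 there were 0 of the 5, against 13.1% of all genes. The erythroid sums ran from 255 to 451 in controls and from 303 to 695 in Osr2-Ezh2cko libraries. The one not tested, *Klf1*, reached at most 0.736. Of 5 leukocyte and osteoclast markers 0 passed an unadjusted p under 0.05, against 13.1% of all genes. Their sums were 224, 827, 316 and 438 in controls and 512, 204, 733 and 215 in Osr2-Ezh2cko libraries, with *Ctsk* the most abundant. *Acta1* was the only muscle marker tested and was highest in control library 4, at 13.3 against 0.255 to 5.06 elsewhere.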

How the data were processed

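The deposited table gives 1 signal per gene and library, a normalized read abundance that the authors made from single-end reads aligned to mm10. The paper's methods name TopHat and RPKM, whereas the submitters' processing notes name CASAVA 1.8.2, STAR 2.5.3a and Partek. No gene-length factor was seen in the values, so they were not treated as RPKM. Of the values under 20 times a library's minimum, 62.5% were whole multiples of it, within a tolerance of 0.02, so no count test was run.

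Genes that reached a value of 1 in 4 or more of the 8 libraries were tested on log2(value + 1) with limma 3.58.1 in R 4.3.3 (two-sided, mean-variance trend, Benjamini-Hochberg adjustment over 14854 genes). Differences are Osr2-Ezh2cko minus control, and the fit was tested on simulated data. Single genes were also compared by exact two-sided permutation of group means. Groups and replicate numbers came from the sample labels, and no library was left out. The methods of the paper give 4 samples per group but speak of 3 pairs where they name the 75-base reads, so whether all 8 libraries were run alike is unclear.

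Gene models, exonic lengths, transcripts and shared 75-base windows came from GENCODE M21, where 20089 of the 20926 gene names were found. Promoters came from RefSeq. Scripts used Python 3.11.15, pandas 2.3.3, scipy 1.17.1 and matplotlib 3.10.9.

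Values in every library are given for the 3 histone genes with the highest mean in each class and for every histone gene at an unadjusted p under 0.05. In the other lists the rule names *Ezh2*, *Npat*, *Slbp*, *Mki67*, *Pcna*, any gene at an adjusted p under 0.05 and otherwise the 2 largest changes in each direction. Genes named beyond this rule, namely *Hist1h2al*, *Hist1h2bk*, *Hist1h4m*, the Gm genes of the Hist2 repeat, *Trim17*, *Hist2h2ac*, *Ssrp1*, *H1f0*, *H2afz*, *H2afy*, *Cenpa* and the single markers, were chosen after their values were seen. Some planned markers of blood and Schwann cells are not reported here. The members and lists were chosen with earlier results of these data known.

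Alternatives were pseudocounts of 0.1 and 5, no filter, a filter at 10, median-of-ratios and quantile scaling, limma without the trend, array weights, the replicate block, ameloblast transcripts as a covariate, ratios of group means, each library left out in turn and, chosen after seeing the data, a log2 scale without the added 1 or any filter.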

Additional observations from a re-analysis of the deposited data

Results flagged for a closer look

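In groups of 4 libraries, the gap of the highest or lowest library to its nearest neighbour was compared with the range of the group for 20 genes, or 40 groups. A total of 4 groups stood out, and chance singles out about 1 in 20 groups, or 2 of 40. *Hist1h3a* was at 0.501 in Osr2-Ezh2cko library 1 against 0.232 to 0.258 in the other three. *Hist1h4i* was at 2.62 in control library 1 against 3.09 to 3.18. *Ezh2* was at 55.0 in control library 1 against 38.3 to 39.6, and *Slbp* was at 38.9 in Osr2-Ezh2cko library 3 against 51.02 to 53.2.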

How the results depend on the processing

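As deposited, limma called 308 genes at an adjusted p under 0.05, of which 1 was a histone gene, *Hist2h2aa2*. With a filter at a value of 10 the counts were 119 and 0, since *Hist2h2aa2* is no longer tested, and with array weights they were 4040 and 5. Leaving out single libraries gave 128 (without control library 3) to 384 (without Osr2-Ezh2cko library 1) genes and 1 to 3 histone genes, 3 being reached without Osr2-Ezh2cko library 1. The adjusted p of *Hist2h2aa2* ran from 0.000109 with array weights to 0.0501 with the replicate block.

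Histone genes at an unadjusted p under 0.05 numbered 4 of 7 as deposited (13.1% of all genes tested), 8 of 51 without a filter (12.5%), 1 of 3 with a filter at 10 (11.2%), 7 of 7 with array weights (40.7%), where *Hist1h4i* was higher and the other 6 lower, and 3 to 5 of 7 with a library left out (8.60% to 14.9%). Their median difference, -0.34, was -0.073 over all 51 genes without a filter, where the added 1 exceeds most values, and -0.38 to -0.30 with a library left out. On a log2 scale without the added 1 or any filter, an alternative chosen after seeing the data, the median was -0.44, with 6 of 51 at an unadjusted p under 0.05 (12.6% of all genes) and 1 called.

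The labels number the replicates alike in both groups, but same-numbered libraries did not deviate together (correlations -0.34, -0.077, 0.22 and -0.43), and the main fit does not pair them. With the replicate block 73 genes and 0 histone genes were called.

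The mitosis median, -0.11, was 0.18 with array weights and -0.32 with the ameloblast covariate, and the chaperone median, -0.0082, was -0.091 with the ameloblast covariate. *Hist1h4i* (0.029) was -0.024 after quantile normalization, -0.029 with the covariate and -0.036 to 0.16 with a library left out. *Npat* (0.030) was -0.023 to 0.093 and *Pcna* (-0.013) -0.078 to 0.086 with a library left out. Array weights gave 0.072 for *Pcna* and 0.048 for *Mki67* (-0.21), and the covariate gave -0.43 for *Mki67* (adjusted p 0.135) and -0.054 for *Slbp* (0.048), which array weights called at 0.17 (adjusted p 0.0277). *Ezh2* (-0.46) was -0.64 with the covariate (adjusted p 0.0274) and -0.19 with array weights (adjusted p 0.135). Except where stated, the cause of these changes was not tested. Depth limits the 44 untested genes, at 0 to 89 estimated reads.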
